A study of Mus musculus with 8 samples.

Results

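Iron storage, uptake and export were followed through 10 mouse genes, Tfrc, Fth1, Ftl1, Slc40a1, Slc11a2, Aco1, Ireb2, Ncoa4, Trf and Cp, chosen by name and found as 10 of the 54838 gene rows of the deposited count tables. Earlier results of these data were known when the genes were chosen. The 8 libraries, 2 in each of 4 groups, hold polyadenylated RNA of cultured fibroblasts from mouse embryos (MEFs). The groups were senescent cells kept 24 h in HEPES-buffered medium of alkaline pH, senescent cells kept 24 h in the control buffered medium, senescent cells (n-Sen), and proliferating cells. Senescence was brought about with nutlin3a, which frees p53 from MDM2, for 48 h after arrest in G2 with RO3306, and the cells were then held for 14 days in 100 nM BI-2536, a PLK1 inhibitor that removes dividing cells. All 3 senescent groups share these treatments, and all cells grew in low oxygen. The mouse strain, the pH values and the medium of the n-Sen libraries are not given in the sources used here, and neither is it stated whether the 2 libraries of a group came from separate cultures, so the p-values measure only the spread between these libraries, which may be technical.

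Cells take up iron when transferrin (Trf) binds the transferrin receptor (Tfrc) and the pair is carried into endosomes, where the acid pH releases the iron and the transporter DMT1 (Slc11a2) moves it into the cytosol. Iron that is not used is stored in ferritin, a shell built of heavy (Fth1) and light (Ftl1) subunits, and is recovered when the receptor NCOA4 brings ferritin to the lysosome. Ferroportin (Slc40a1) is the only known exporter of free iron in mammals, and ceruloplasmin (Cp) oxidises the iron that leaves. The iron regulatory proteins IRP1 (Aco1) and IRP2 (Ireb2) bind hairpins called iron-responsive elements when iron is scarce, which blocks translation of the ferritin and ferroportin mRNAs and protects the Tfrc mRNA from decay.

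The hairpins of the members are shown because they are the sequence feature that joins the receptor, the ferritins and the exporter. GENCODE vM21 transcripts were searched on the sense strand for a C, then 5 bases, the loop CAGTGN, and 5 bases that pair with the first 5, G with T allowed. A match was found in 4 of the 10 members. The search found one in 1.68% of the 21921 protein-coding genes. Each hairpin is given as DNA with 5 further bases on either side and with the loop in capitals.
Fth1: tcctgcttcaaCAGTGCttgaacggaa
Ftl1: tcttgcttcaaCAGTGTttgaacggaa
Slc40a1: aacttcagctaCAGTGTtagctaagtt
Tfrc element 1: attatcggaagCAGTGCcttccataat
Tfrc element 2: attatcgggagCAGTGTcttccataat
Tfrc element 3: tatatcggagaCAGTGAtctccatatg
Tfrc element 4: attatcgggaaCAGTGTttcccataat
On GRCm38, the build also called mm10, the elements lie in the 5′ UTR at chr19:9982733-9982759 on the plus strand (Fth1), chr7:45459780-45459806 on the minus strand (Ftl1) and chr1:45925466-45925492 on the minus strand (Slc40a1). The 4 elements found in Tfrc lie in its 3′ UTR on the plus strand between chr16:32631220-32631246 and chr16:32631711-32631737. Elements with other letters would be missed by this search. The ferritin elements were identical at 25 of 27 bases, while those of Fth1 and Slc40a1 shared 13. No match in the other 6 members says only that these letters are not in their annotated transcripts, and Slc11a2 is known to have a transcript form with an element of another shape. The counts are per gene and cannot separate its forms.

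Total counts ran from 40608517 to 54183060 per library, and all 10 members passed the filter on low counts in every comparison. Levels are given as CPM, the count of a gene relative to the library total with TMM scaling, differences as log2 fold changes ± SE, and a gene is called when its adjusted p is under 0.05. Per kilobase of annotated exon, Ftl1 was the most abundant member in every group and Fth1 came next. In n-Sen they reached 1585 ± 82.9 and 305 ± 12.3 CPM per kb (SD, n = 2), followed by Aco1 at 11.7 ± 0.319, Ncoa4 at 9.68 ± 0.125 and Ireb2 at 8.95 ± 0.0079. Slc11a2 (5.22 ± 0.164) and Tfrc (5.18 ± 0.273) did not differ beyond their spread there. In proliferating cells Tfrc held the third place with 35.6 ± 0.381 CPM per kb. Trf, Slc40a1 and Cp took the last 3 places in all 4 groups on this scale, with at most 3.06 ± 0.302 CPM per kb, reached by Slc40a1 in control medium. The order of the members below ferritin changes in part when the longest CCDS transcript is used as the length instead. Together Fth1 and Ftl1 took between 0.27% and 0.33% of the counts of a library.

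Not every row counts reads of 1 gene alone. The Ftl1 row was fractional in all 8 libraries, and 2 annotated genes lie within its exons. The separate row of Gm22133 had a count of 22.4% to 23.4% of the size of the Ftl1 count, and that of Gm10252, which lies on the opposite strand, 36.6% to 39.9%, so reads of these rows cannot be told apart from those of Ftl1. The 3 rows of Ftl1 copies, named as pseudogenes, came to 1.57% to 1.71% of its count, and those of Fth1 to at most 0.0203%. Trf shares 2108 of its 3320 exonic bases with Gm20425, a transcript on the same strand, and Cp and Slc11a2 share 108 and 402 bases with Hps3 and Gm5475 on the opposite strand.

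**Figure D1:**
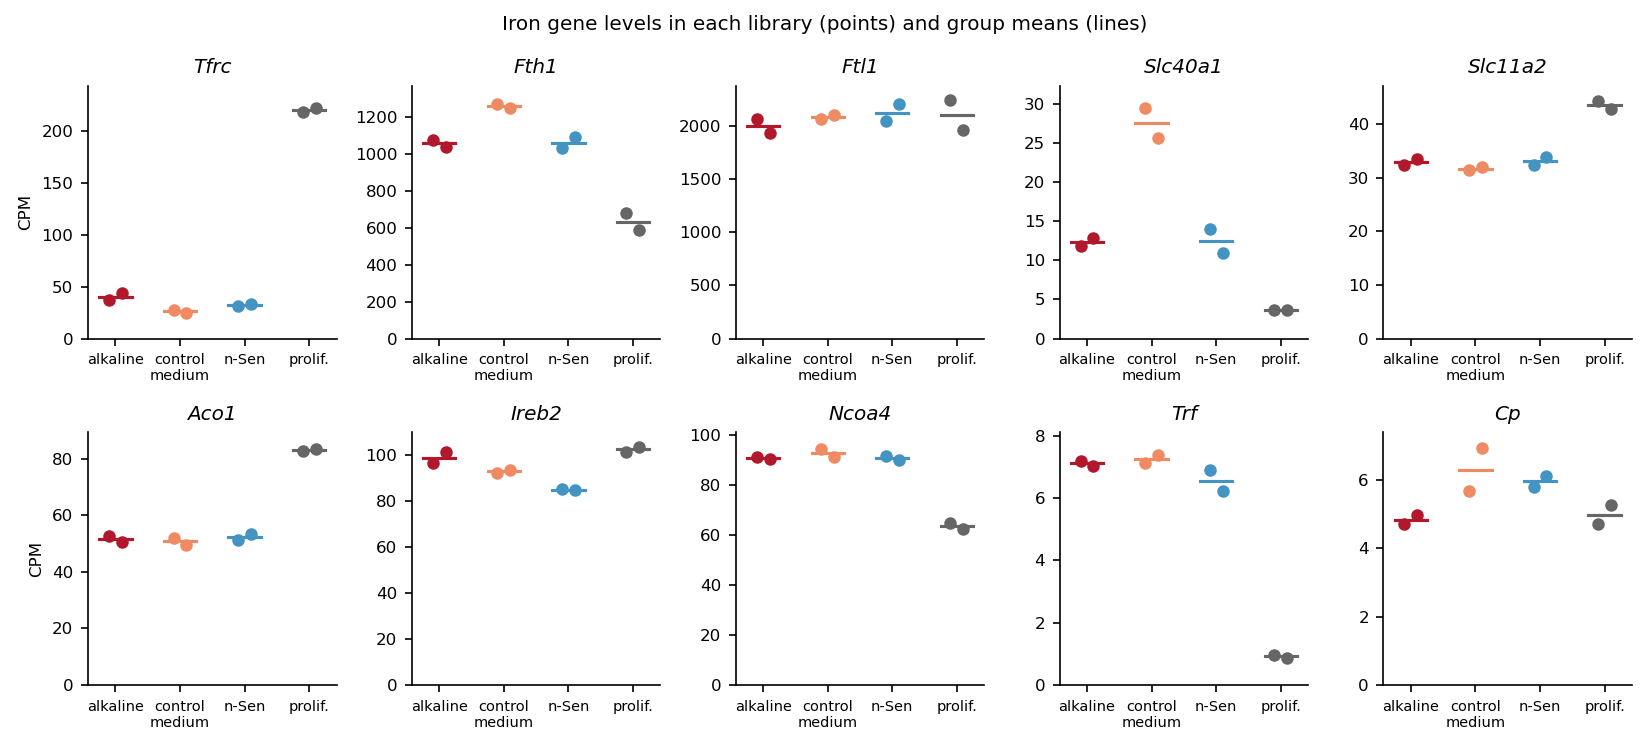
CPM of the 10 iron genes in each library (points) with the group mean (line), for alkaline medium, control medium, n-Sen and proliferating cells from left to right, each panel with its own axis from 0. Tfrc stands at 218 and 222 CPM in proliferating cells and between 24.9 and 43.5 CPM in the 6 senescent libraries, and Slc40a1 is highest in control medium.

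The first comparison asks how iron genes differ between n-Sen and proliferating cells. Tfrc fell steeply, the exporter gene Slc40a1, the heavy ferritin subunit gene Fth1 and the ferritin receptor gene Ncoa4 rose, and both iron regulatory protein genes and Slc11a2 fell. Of the 10 members, 4 rose, 4 fell and 2 did not pass, against 67.1% of all genes called in this comparison, 34.0% higher and 33.1% lower, so the number of calls is near the background and is no result about these genes. For 9 of the 10 the ranges of the groups were apart, against 83.4% of all genes. The median log2 fold change was 0.14 over the members and 0.0015 over all genes tested. Senescence cannot be told apart here from the drug treatments and the time in culture.

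Among the uptake genes, Tfrc had 30.8 and 33.2 CPM in n-Sen, against 218 and 222 CPM in proliferating cells. The n-Sen libraries lay far below both proliferating ones, a 6.85-fold lower level (log2 fold change -2.78 ± 0.062, adjusted p = 2.12e-16). By CPM it ranked 5550 in n-Sen and 789 in proliferating cells among 20215 genes. Slc11a2 fell to 32.4 and 33.9 CPM in n-Sen, against 44.3 and 42.9 CPM in proliferating cells (-0.39 ± 0.075, adjusted p = 0.000179). Trf, which is made in quantity by the liver, had 6.90 and 6.22 CPM in n-Sen, against 0.960 and 0.876 CPM in proliferating cells. It rose with the largest positive fold change of the 10 (2.84 ± 0.213, adjusted p = 2.18e-09), from raw counts of 322 and 335.5 in n-Sen, against 39.5 and 44 in proliferating cells. With the row of the overlapping Gm20425 added, an alternative chosen after seeing the data, the rise was 0.59 (adjusted p = 4.46e-06), so its size depends on how shared reads are assigned. Of 8 hepatocyte markers, 6 had no count in n-Sen, and the list summed to 1.56 to 2.1 CPM there, against 1.35 to 1.85 CPM in proliferating cells.

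The storage genes parted. Fth1 had 1029.5 and 1089.6 CPM in n-Sen, against 677 and 588 CPM in proliferating cells. Both n-Sen libraries were above both proliferating ones (0.75 ± 0.056, adjusted p = 2.25e-09), a 1.68-fold higher level. Ftl1 had 2046 and 2203 CPM in n-Sen, against 2246 and 1958 CPM in proliferating cells. These groups overlapped, and the difference of 0.02 ± 0.054 did not pass (adjusted p = 0.785; within ± 2 SE, -0.09 to 0.13). Its call hung on single libraries, with 0.12 (adjusted p = 0.00194) without proliferating replicate 1 and -0.080 (adjusted p = 0.0413) without proliferating replicate 2. Ncoa4, which carries ferritin to its breakdown, had 91.5 and 89.9 CPM in n-Sen, against 65.0 and 62.3 CPM in proliferating cells (0.51 ± 0.060, adjusted p = 7.14e-07).

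The exporter gene Slc40a1 had 14.0 and 10.9 CPM in n-Sen, against 3.60 and 3.64 CPM in proliferating cells. The level was 3.43-fold higher (1.78 ± 0.156, adjusted p = 1.82e-08), and the n-Sen libraries differed more from each other than the proliferating ones. Cp did not pass (0.26 ± 0.162, adjusted p = 0.172), with 5.79 and 6.11 CPM in n-Sen, against 4.70 and 5.26 CPM in proliferating cells. Ferroportin is abundant in macrophages that recycle iron, and markers of macrophages moved with it. All 18 tested markers of 21 rose, against 34.0% of all genes, with a median of 4.24. The list summed to 1255 to 1333 CPM in n-Sen, against 57.1 to 65.2 CPM in proliferating cells. The macrophage marker Adgre1 averaged 48.3 ± 1.54 CPM in n-Sen and 1.16 ± 0.292 CPM in proliferating cells (SD, n = 2 each), while Cd163, Timd4 and Spic, which mark macrophages that clear haemoglobin or red cells, had no count in n-Sen. Their part in the rise of Slc40a1 was not tested, and in such bulk samples more cells of a type and more RNA per cell cannot be told apart. Of 12 fibroblast markers, 10 rose in n-Sen and 2 fell, against 34.0% and 33.1% of all genes. Those that fell were Pdgfra (-3.17 ± 0.090) and Thy1 (-0.22 ± 0.053). The fibroblast list summed to 21115 to 21129 CPM in n-Sen, against 13201 to 13580 CPM in proliferating cells.

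Both regulator genes were lower in n-Sen. Aco1, whose protein is an aconitase when iron is plentiful and an RNA-binding protein when it is not, had 51.4 and 53.4 CPM in n-Sen, against 82.6 and 83.3 CPM in proliferating cells (-0.66 ± 0.063, adjusted p = 4.98e-08). Ireb2, whose protein is destroyed when iron is plentiful, had 84.9 and 84.8 CPM in n-Sen, against 101 and 103 CPM in proliferating cells (-0.27 ± 0.057, adjusted p = 0.000493). Neither gene's groups overlapped, and the fall of Ireb2 was the smaller in size. The protein activity of both depends on iron and was not measured.

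**Figure D2:**
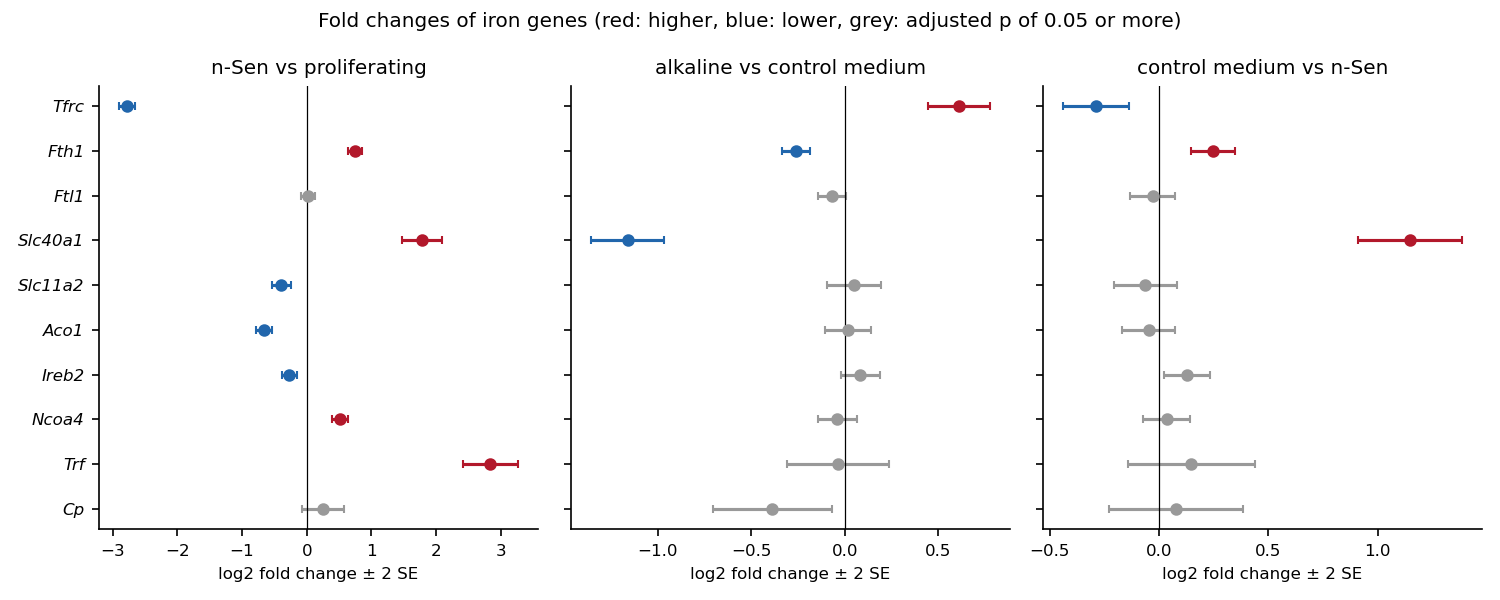
Log2 fold changes of the 10 iron genes with bars of ± 2 SE, for n-Sen against proliferating cells, alkaline against control medium, and control medium against n-Sen, each panel with its own horizontal axis. Tfrc, Fth1 and Slc40a1 are the 3 members called in every panel, with values of -2.78, 0.75 and 1.78, then 0.61, -0.26 and -1.16, then -0.29, 0.25 and 1.15.

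The second comparison, alkaline against control medium in senescent cells, is the stated purpose of the series. In alkaline medium Tfrc rose, and Slc40a1 and Fth1 fell, while the remaining 7 members did not pass. These 3 of 10, 1 higher and 2 lower, stand against 20.0% of all genes called, 9.58% higher and 10.4% lower. For 8 of the 10 the ranges of the media were apart, against 56.7% of all genes. The median log2 fold change of the members was -0.038, and that of all genes tested -0.0093.

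Slc40a1 had 11.8 and 12.9 CPM in alkaline medium, against 29.4 and 25.6 CPM in control medium. The alkaline libraries lay well below the control ones, a 2.24-fold lower level (-1.16 ± 0.098, adjusted p = 5.30e-09). Tfrc had 37.1 and 43.5 CPM in alkaline medium, against 27.6 and 24.9 CPM in control medium (0.61 ± 0.083, adjusted p = 6.75e-06). Its level was 1.53-fold higher, still far under that of proliferating cells. Fth1 had 1076 and 1035 CPM in alkaline medium, against 1268 and 1248 CPM in control medium (-0.26 ± 0.037, adjusted p = 1.37e-05), a 1.20-fold lower level. The direction and the call of these 3 held in all alternatives run on this contrast, with a range of -1.26 to -1.06 for Slc40a1, 0.49 to 0.72 for Tfrc and -0.29 to -0.23 for Fth1. Beside them, 9 of 18 macrophage markers fell, against 10.4% of all genes, and 9 did not pass, with a median of -0.28. The macrophage list summed to 1134 to 1138 CPM in alkaline medium, against 1224 to 1291 CPM in control medium. More than any other marker, Lyz2 made up this sum, with means of 676 CPM in alkaline and 702 CPM in control medium. It did not pass (-0.06 ± 0.042). The largest falls were those of Marco (-2.16 ± 0.261) and Mrc1 (-1.43 ± 0.133), both with low counts (means of 0.919 and 5.24 CPM in alkaline medium). Of the 12 fibroblast markers, 7 fell and 4 rose, against 10.4% and 9.58% of all genes, and 1 did not pass. Their sum was 22110 to 22272 CPM in alkaline medium, against 18981 to 20714 CPM in control medium. Most of this rise came from Col1a1 alone, which averaged 8176 CPM in alkaline medium and 6069 CPM in control medium. The sum therefore does not describe the list as a whole. The part of either list in the fall of Slc40a1 was not tested.

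Ftl1 had 2060.2 and 1933 CPM in alkaline medium, against 2064 and 2099 CPM in control medium, and did not pass (-0.07 ± 0.037, adjusted p = 0.231; within ± 2 SE, -0.14 to 0.01). Cp had 4.71 and 4.96 CPM in alkaline medium, against 5.66 and 6.91 CPM in control medium. Its difference of -0.39 ± 0.159 did not pass (adjusted p = 0.0929) but did without control medium replicate 1 (-0.52, adjusted p = 0.0406). The regulators Aco1 (0.02 ± 0.063) and Ireb2 (0.08 ± 0.052), the transporter Slc11a2 (0.05 ± 0.073), the ferritin receptor Ncoa4 (-0.04 ± 0.052) and Trf (-0.04 ± 0.136) had adjusted p-values between 0.308 and 0.906. Trf was the least precise of these, with an interval of -0.31 to 0.24.

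The last comparison sets senescent cells in control buffered medium beside the n-Sen libraries of the other table. Slc40a1 had 29.4 and 25.6 CPM in control medium, against 14.0 and 10.9 CPM in n-Sen (1.15 ± 0.119, adjusted p = 6.59e-07), a 2.22-fold higher level. Fth1 was higher too (0.25 ± 0.051, adjusted p = 0.00223), and Tfrc was lower at 27.6 and 24.9 CPM in control medium, against 30.8 and 33.2 CPM in n-Sen (-0.29 ± 0.075, adjusted p = 0.0146). These 3 of 10, 2 higher and 1 lower, stand against 11.1% of all genes, 6.18% higher and 4.96% lower. For 6 of the 10 the ranges were apart, against 52.0% of all genes. The call of Fth1 was lost without n-Sen replicate 1 (adjusted p = 0.0791), and that of Tfrc without n-Sen replicate 2 (0.179) or control medium replicate 2 (0.201). Of 18 macrophage markers tested, none rose and 1 fell here, and the list summed to 1224 to 1291 CPM in control medium, against 1255 to 1333 CPM in n-Sen. The medium and any difference in handling between the tables cannot be told apart.

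The levels in alkaline medium lay close to those of n-Sen for some of these genes and not for others. In the fit of all 8 libraries, where alkaline medium is set against n-Sen and 24.8% of all genes were called, Slc40a1 differed by -0.0077 ± 0.124 and Fth1 by -0.0051 ± 0.051, and neither passed (adjusted p = 0.979 and 0.965). Tfrc was higher in alkaline medium than in n-Sen (0.33 ± 0.074, adjusted p = 0.00182), as was Ireb2 (0.22 ± 0.053, adjusted p = 0.00358), with 96.3 and 101 CPM in alkaline medium, against 84.9 and 84.8 CPM in n-Sen. This comparison was added after seeing the data. The alkaline and n-Sen libraries are shared with the other comparisons, so these values are not independent of them.

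The ratio of Tfrc to Fth1 within a library needs no scaling for depth. Each Tfrc count was matched by 29.0 and 23.8 Fth1 counts in alkaline medium, 45.9 and 50.1 in control medium, 33.4 and 32.8 in n-Sen, and 3.10 and 2.65 in proliferating cells. On the log2 scale and per kilobase, the ratio of Tfrc to Fth1 was lower by 3.53 in n-Sen, at -5.88, against -2.35 in proliferating cells (pooled SD 0.114). It averaged -5.55 in alkaline medium and -6.42 in control medium, a difference of 0.87 (pooled SD 0.156). The ratio of Fth1 to Ftl1 was -2.38 in n-Sen and -3.11 in proliferating cells, a difference of 0.73. It was -2.29 in alkaline medium and -2.1 in control medium, a difference of -0.19. The values of both ratios depend on the exon lengths used, and that of Fth1 to Ftl1 also on reads shared with the genes inside Ftl1. Differences between groups do not depend on the lengths. None turned direction when the rows of those genes and of the pseudogenes were added. No pair of groups overlapped in either ratio, but an exact two-sided permutation test of 2 against 2 gives p = 0.33 in each of the 3 comparisons, the smallest it can give.

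**Figure D3:**
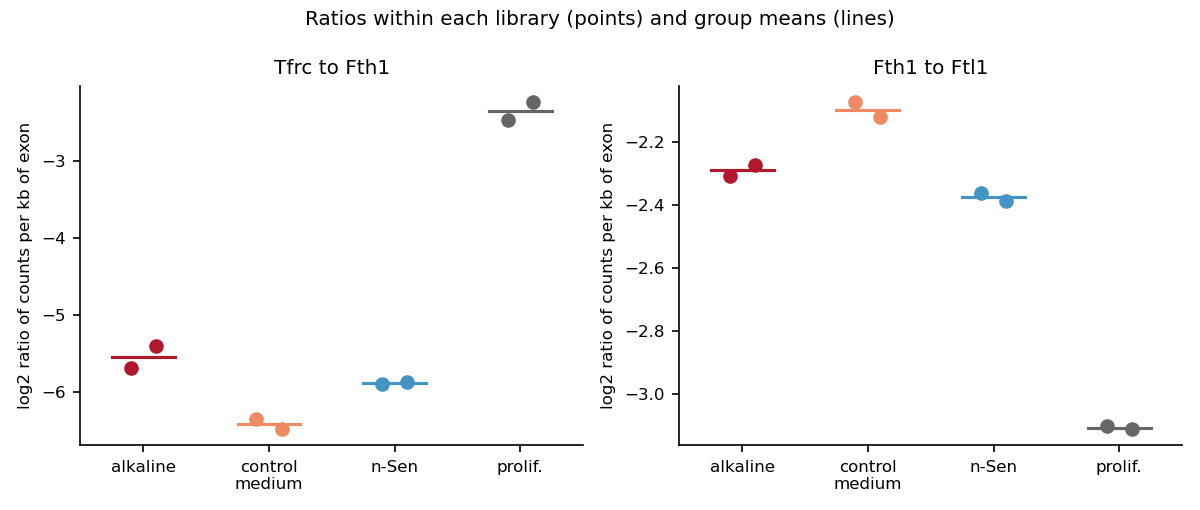
Log2 ratio of Tfrc to Fth1 (left) and of Fth1 to Ftl1 (right), from counts per kilobase of exon, in each library (points) with the group mean (line), for alkaline medium, control medium, n-Sen and proliferating cells. The ratio of Tfrc to Fth1 averages -5.55, -6.42, -5.88 and -2.35 in this order.

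Other genes of iron handling, 55 by role, moved in both directions. In n-Sen against proliferating cells 44 were tested, of which 16 rose, 12 fell and 16 did not pass, so 63.6% were called, against 67.1% of all genes. In alkaline against control medium 45 were tested, of which 5 rose, 12 fell and 28 did not pass, so 37.8% were called, against 20.0% of all genes. Their median log2 fold changes were 0.15 and -0.046. This list, like the members and the marker lists, was chosen with earlier results of these data known, so these shares are a description.

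Uptake and vesicle genes rose in 4 of 7 cases in n-Sen and fell in 1, or 71.4% called, near the 67.1% of all genes. The lipocalin receptor gene Slc22a17 rose by 2.13 ± 0.156, the zinc and iron transporter gene Slc39a14 by 0.63 ± 0.060 and the lysosomal iron channel gene Mcoln1 by 0.42 ± 0.075. In alkaline against control medium 8 were tested and 37.5% called, against 20.0% of all genes. Slc39a14 (0.30 ± 0.055) and Mcoln1 (0.24 ± 0.070) rose there, and Slc22a17 fell (-0.27 ± 0.086). Heph, which encodes the ferroxidase hephaestin, averaged 10.8 ± 0.863 CPM in n-Sen and 3.47 ± 0.0114 CPM in proliferating cells (SD, n = 2 each; 1.64 ± 0.149), and did not pass between the media. The iron chaperone genes Pcbp1 (-0.74 ± 0.048) and Pcbp2 (-1.02 ± 0.050) fell in n-Sen.

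The ubiquitin ligase gene Fbxl5, whose product marks IRP2 for destruction when iron is plentiful, averaged 33.8 ± 0.229 CPM in alkaline medium and 46.7 ± 1.68 CPM in control medium (SD, n = 2 each). It fell there (-0.47 ± 0.067, adjusted p = 1.43e-05) and did not pass in n-Sen against proliferating cells (-0.02 ± 0.085), where the ligase gene Herc2 rose (0.42 ± 0.058). Haem genes rose in 5 and fell in 3 of 13 cases in n-Sen, or 61.5% called, against 67.1% of all genes. The haem transporter gene Slc48a1 rose by 1.20 ± 0.055, Lrp1, whose product takes up haem bound to hemopexin, by 0.996 ± 0.043 and the exporter gene Abcg2 by 0.56 ± 0.066. In alkaline medium Slc48a1 (-0.33 ± 0.044) and the biliverdin reductase gene Blvrb (-0.55 ± 0.107) fell and the folate and haem carrier gene Slc46a1 rose (0.85 ± 0.125).

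Mitochondrial genes fell in 5 and rose in 2 of 11 cases in n-Sen, or 63.6% called, against 67.1% of all genes. The scaffold gene Iscu rose (1.13 ± 0.067). The iron importer gene Slc25a37, which encodes mitoferrin 1, had opposite signs: it fell in n-Sen (-0.97 ± 0.073), and rose in alkaline medium with 58.6 ± 0.934 CPM, against 39.6 ± 0.514 CPM in control medium (SD, n = 2 each; 0.56 ± 0.062). Iscu (-0.21 ± 0.057) and the cluster assembly gene Isca2 (-0.39 ± 0.118) fell in alkaline medium. Of the hepcidin axis, Hfe, whose product binds the transferrin receptor, rose in n-Sen (2.13 ± 0.219) and fell in alkaline medium (-0.92 ± 0.166), and Erfe fell in n-Sen (-1.75 ± 0.206). The ligand gene Bmp6 fell in alkaline medium (-0.79 ± 0.165). Among other mRNAs known to carry an iron-responsive element, Epas1, which encodes HIF-2 alpha, rose in n-Sen (2.31 ± 0.078) and fell in alkaline medium (-0.61 ± 0.065). Cdc42bpa rose in both (0.34 ± 0.051 and 0.29 ± 0.043). Heph, Pcbp1, Pcbp2, Fbxl5, Slc48a1, Slc25a37, Erfe, Bmp6 and Cdc42bpa share exonic bases with other annotated genes, so reads of the shared bases may belong to either gene.

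**Figure D4:**
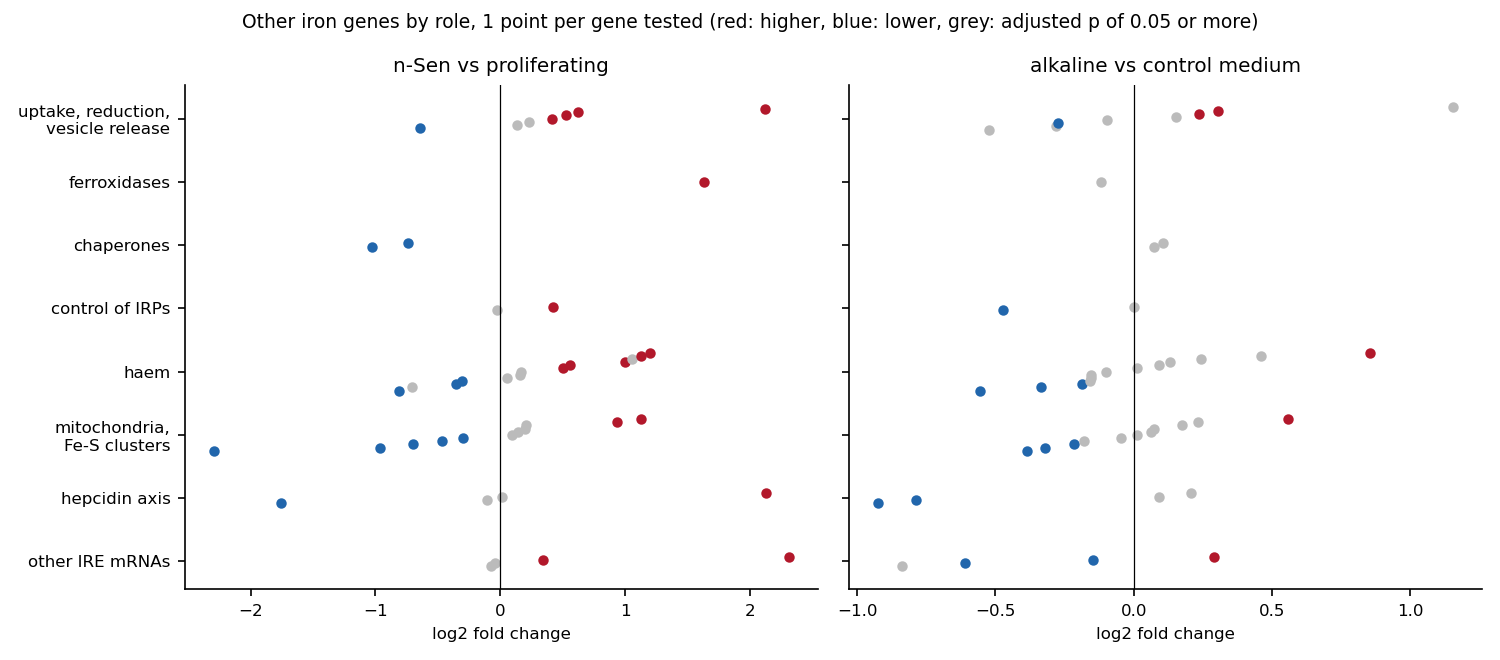
Log2 fold changes of the other iron genes, 1 point per gene tested, by role, for n-Sen against proliferating cells (44 genes) and alkaline against control medium (45 genes), with iron regulatory proteins as IRPs and iron-responsive elements as IRE. Points are red for genes called higher, blue for genes called lower and grey for the others, and 16 and 12 genes on the left and 5 and 12 on the right are called.

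Genes with the pattern most like that of Tfrc over the 4 group means, by Euclidean distance of centred log2 values, were Tyms (0.21), Ccne2 (0.24) and Rrm2 (0.31), genes of nucleotide supply and of entry into DNA replication. Rrm2 averaged 67.8 CPM in alkaline medium, 44.5 in control medium, 49.2 in n-Sen and 284 in proliferating cells. Of 9828 genes compared, 43 lay within 0.5 of Tfrc and 2 within 0.5 of Slc40a1. The nearest to Slc40a1 were Mitf (0.38), Mustn1 (0.48) and Podn (0.51). Mitf, which encodes a transcription factor of melanocytes, osteoclasts and other cells, averaged 9.43 CPM in alkaline medium, 15.3 in control medium, 9.60 in n-Sen and 2.51 in proliferating cells. These distances rest on 4 groups of 2 libraries and are a description.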

How the data were processed

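Per the labels' protocols, poly-A RNA was made into libraries that keep the strand through dUTP. The submitters' processing notes name mm10 as the build and DESeq2 1.34.0, Subread 2.0.2 with featureCounts, HISAT2 2.1.0 and fastp 0.23.2 as tools; annotation release and strand setting are not given in the sources used here. The authors deposited 2 tables of 54838 rows with expected counts, some of them fractional. Rounded to whole numbers, they went through filterByExpr and TMM into edgeR 4.0.16 (R 4.3.3), whose quasi-likelihood test gave p-values adjusted after Benjamini and Hochberg over all genes tested (19264, 19129 and 20215 in the 3 comparisons). The first 2 comparisons used their own 4 libraries, the third all 8. CPM used TMM factors over all 8 libraries. An SE is the absolute log2 fold change divided by the square root of F. Symbols, exon lengths, coordinates and transcripts came from GENCODE vM21. A chi-square per degree of freedom of 4.63 to 7.39 between the libraries of a group showed more than sampling noise, so none was counted as a repeat. The fits were tested on simulated counts.

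The members and the gene lists were chosen with earlier results of these data known. Of the other iron genes, the text names up to 3 called genes of smallest p per role and comparison; for Tfrc and Slc40a1 it names the 3 genes of nearest pattern with at least 10 CPM in a group, on log2 of CPM plus 0.5. A few genes chosen this way are left out of the text. Marker lists of macrophages, fibroblasts, hepatocytes, erythroid cells and glia were read beside them. The erythroid list had 7 of 10 genes without a count in n-Sen and the glial list (oligodendrocyte and Schwann cell markers) summed to 4.33 to 5.23 CPM in n-Sen, against 8.66 to 9.53 CPM in proliferating cells. Alternatives were another scaling, no filter, DESeq2 1.42.0, other sets of libraries, a replicate block, rounding down, and rows of overlapping genes or pseudogenes added.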

Additional observations from a re-analysis of the deposited data

How the results depend on the processing

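Of the alternative values for single members, 299 kept their direction and their side of the threshold, 8 turned direction, 3 lost the call and 2 gained one in the same direction. Of the 8, Ftl1 without proliferating replicate 2 also passed the threshold. The calls in n-Sen against proliferating cells held in all of them. Directions turned only for differences that had not passed. Leaving out a library in turn gave -0.080 to 0.12 for Ftl1 in n-Sen against proliferating cells, -0.021 to 0.057 for Aco1 in alkaline against control medium, and -0.081 to 0.022 for Ftl1 and -0.070 to 0.22 for Cp in control medium against n-Sen. With the row of Gm20425 added, Trf gave 0.16 in alkaline against control medium and -0.0056 in control medium against n-Sen, where the added reads belong in part to another gene. Leaving out a library of control medium or n-Sen lowered the count of all genes called between them to between 1181 and 1382, against 2253, with fewer libraries. Members called stayed at 8 or 9 in n-Sen against proliferating cells and at 3 or 4 in alkaline against control medium, and ranged from 2 to 3 in control medium against n-Sen.

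Replicate numbers are shared by the groups, but no label says that they mark a shared culture. Same-numbered libraries did not deviate together (correlations of -0.014, -0.0071 and -0.0031 over 20215 genes). With the replicate block 8, 3 and 3 members were called in the 3 comparisons, the same counts as without it, and the block changed no call of a member. The exact test of the ratios cannot reach the threshold and says nothing of stability. With 2 libraries per group, small differences such as those of Ftl1 and Cp stay undecided.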

Other observations

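In control medium against n-Sen, 3 of 13 genes of haem handling rose, 2 fell and 8 did not pass. Hmox1, which encodes the inducible haem oxygenase that frees iron from haem, averaged 1069 ± 28.3 CPM in control medium and 321 ± 37.1 CPM in n-Sen (SD, n = 2 each), a log2 fold change of 1.74 ± 0.061 (adjusted p = 1.90e-14 by edgeR's quasi-likelihood test). Alas1, which encodes the first enzyme of haem synthesis, rose by 0.42 ± 0.079 and Blvrb by 0.43 ± 0.110, while Hmox2, which encodes the constitutive form (-0.26 ± 0.076), and Lrp1 (-0.16 ± 0.049) fell. Hmox2 shares 892 of its 2217 exonic bases with Cdip1, and Alas1 shares 465 of 6174 with an antisense gene. Reads of the shared bases may belong to either gene. In alkaline medium Hmox1 averaged 943 ± 10.1 CPM, lower than in control medium (-0.19 ± 0.038). Fbxl5 (0.28 ± 0.076) and Bmp6 (0.84 ± 0.179) were higher and Epas1 (-0.23 ± 0.065) lower in control medium than in n-Sen. Of 46 other iron genes tested there, 5 rose, 4 fell and 37 did not pass, so 19.6% were called, against 11.1% of all genes, and the medium cannot be told apart from the table.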
